A study of Mus musculus with 6 samples.

Results

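The genes described here are immediate early genes and heat shock genes of the mouse, measured in lymph node (LN) stromal cells and fibroblasts. They were taken as 41 named genes, and 40 of them had a probe set of their own on the array, among 19938 genes with one. For Hspa1b there was only a probe set shared with its near-identical neighbour Hspa1a, so it was not counted. Where a gene had several probe sets, which held for 5 of the 40, the brightest by its mean over all arrays stood for the gene. All 40 genes passed the filter on dim genes in the comparison with LN stroma, and 38 passed it in the comparisons within the cell lines.

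RNA had been hybridised to 6 single-colour Affymetrix arrays, 1 for each sample, and the values are log2 intensities. LN stroma was 1 array of cells sorted from enzymatically digested LN of adult C57BL/6JJcl mice, without CD45 and CD31 and with podoplanin and VCAM-1 on their surface. Embryonic fibroblasts (MEF) were 1 array of cells from trypsin-digested C57BL/6JJcl embryos of days 11.5 to 13.5, cultured in DMEM with 10% FCS. BLS4 and BLS12 are 2 lines of LN stromal cells from BALB/cA mice, kept in the same medium. Each line gave 1 array after 2 days with an agonist of the lymphotoxin β receptor (LTβR), a polyclonal goat antibody at 1 µg/ml, and 1 array without it, called unstimulated. No array with a control antibody was analysed here. The labels did not give the age of the mice behind the lines, the number of mice behind LN stroma or whether animals were pooled. LN stroma differed from MEF in age, tissue, digestion, sorting and culture, and from the lines in strain, digestion, sorting and long-term culture, and these cannot be told apart. The p-values below reflect the variation among these arrays alone, and nothing in the labels says that it is biological.

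Immediate early genes are switched on within minutes of a stimulus, from growth factors to mechanical or oxidative stress, without new protein synthesis. Kinase cascades reach factors already bound at their promoters, such as SRF at CArG boxes and CREB at cAMP response elements (CREs), and the products are themselves transcription factors or brakes on signalling and mRNA stability. Heat shock genes code for chaperones and are induced by HSF1 at heat shock elements when proteins misfold. Both programmes are known to be induced when tissues are enzymatically dissociated at warm temperature, and they also act in living tissue.

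The markers of the gate and of reticular stroma bore on the label of the LN stroma array. Cxcl13 and Ccl19, chemokines of LN stroma, had 12.82 and 12.49 in LN stroma, against at most 6.14 and 6.39 on the 5 cultured arrays. Of 9 reticular markers, all were above the array median in LN stroma, 5 lay above every cultured array and Ltbr lay below all of them, with 8.25 in LN stroma and 8.33 to 8.78 in culture. Their summed intensity was 46043 in LN stroma and 13629 to 23810 in culture. Vcam1 had 11.90 in LN stroma and 9.83 to 11.27 in culture, while Pdpn, a gene of the gate, was below every cultured array, with 10.20 in LN stroma and 10.42 to 11.68 in culture. Ptprc, the gene for CD45, had 5.70 there, just below that array's median of 5.80, while Pecam1, the gene for CD31, had 6.44, against 4.73 to 5.08 on the cultured arrays. The medians of the 5 cultured arrays were 5.69 to 5.82. Of 8 endothelial markers, 6 were above the array median in LN stroma, and their summed intensity was 735, against 295 to 575 on the cultured arrays. Of 7 pericyte and smooth muscle markers, all were above it, with a sum of 7094 in LN stroma and 3492 to 13520 in culture, but only 3 of the 7 lay above every cultured array. Rgs5 had 11.30 in LN stroma and 4.32 to 6.62 in culture, while Acta2 had 11.32 in LN stroma and 11.59 to 13.30 in culture. Of 8 lymphocyte markers with a probe set, 1 was above the array median, with a sum of 287 in LN stroma and 201 to 263 in culture. Of 8 myeloid markers, 3 were above it, with a sum of 611 in LN stroma and 687 to 2232 in culture. Of 6 epithelial and mesothelial markers, 5 were above it, with a sum of 770 in LN stroma and 330 to 2722 in culture. Of 4 erythroid markers, 1 had a probe set of its own, Alas2, with 6.21 in LN stroma. No marker can be at 0 on an array of this kind. In RNA from many cells, fewer cells of a type and less RNA per cell cannot be told apart, and the part of these cells in the differences below was not tested.

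Promoters of the genes that set LN stroma apart are shown with the known regulatory letters that were found in them. Promoter windows, from 250 bases before to 50 bases after each annotated start, came from RefSeq on GRCm38.p6 and existed for 34 of the 41 named genes. Egr1, Egr3, Fosl1, Hsp90aa1, Hspa8, Ier2 and Myc had none and are named only. Each sequence reads 5′ to 3′ on the strand of its gene and ends at the base before the annotated start, and capitals mark the motif. Capitals mark the CRE half-site (TGACG, or its reverse CGTCA) in Fos, chr12:85473750-85473889 on the plus strand, Fosb, chr7:19310046-19310155 on the minus strand, and Nr4a1, chr15:101266736-101266845 on the plus strand. They mark a whole CRE (TGACGTCA) in Dusp1, chr17:26508473-26508632 on the minus strand. They mark the CArG box in Egr2, chr10:67537749-67537868 on the plus strand, and Zfp36, chr7:28379229-28379338 on the minus strand. In Hspa1a, chr17:34972157-34972296 on the minus strand, they mark a heat shock element of 2 units.
Fos: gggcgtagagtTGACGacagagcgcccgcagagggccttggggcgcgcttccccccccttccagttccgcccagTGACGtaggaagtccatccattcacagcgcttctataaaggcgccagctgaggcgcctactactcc
Fosb: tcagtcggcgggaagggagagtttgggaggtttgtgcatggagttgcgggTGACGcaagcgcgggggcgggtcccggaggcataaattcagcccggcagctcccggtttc
Nr4a1: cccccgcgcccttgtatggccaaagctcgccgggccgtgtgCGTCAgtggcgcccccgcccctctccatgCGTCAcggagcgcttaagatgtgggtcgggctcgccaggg
Dusp1: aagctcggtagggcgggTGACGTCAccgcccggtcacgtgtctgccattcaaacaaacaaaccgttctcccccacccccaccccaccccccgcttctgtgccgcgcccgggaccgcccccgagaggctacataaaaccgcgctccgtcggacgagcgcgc
Egr2: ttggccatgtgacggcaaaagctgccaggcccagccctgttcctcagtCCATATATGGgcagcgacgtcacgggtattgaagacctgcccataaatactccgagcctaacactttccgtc
Zfp36: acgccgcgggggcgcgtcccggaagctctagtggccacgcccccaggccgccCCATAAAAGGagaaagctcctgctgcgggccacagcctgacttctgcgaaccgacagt
Hspa1a: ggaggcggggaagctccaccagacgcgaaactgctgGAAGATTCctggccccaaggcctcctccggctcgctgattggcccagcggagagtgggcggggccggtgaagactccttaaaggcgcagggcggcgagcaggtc

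In Fos, the half-sites began 66 and 129 bases before the start, and in Fosb 1 began 60 bases before it. The Nr4a1 half-sites shown began 40 and 69 bases before the start. The Dusp1 CRE lay 143 bases before the start, the CArG box 72 bases before it in Egr2 and 58 bases before it in Zfp36, and the heat shock element of Hspa1a 104 bases before it. Over both strands and all windows of a gene, the CRE was found in 3 of the 34 genes (8.82%), Btg2, Dusp1 and Maff, against 3.48% of 10092 genes that were tested in LN stroma and had a window. The half-site, which every whole CRE contains, was found in 20 of the 34 (58.8%), against 34.3%. The CArG box was found in 2 (5.88%), against 1.57%, and the EGR site (GCGGGGGCG or GCGTGGGCG) in 10 (29.4%), against 7.6%. The heat shock element of 2 units (GAANNTTC or TTCNNGAA) was found in 9 (26.5%), against 13.6%, and that of 3 units (GAANNTTCNNGAA or TTCNNGAANNTTC), which contains it, in Hsph1 alone (2.94%), against 0.535%. The AP-1 site (TGACTCA) was in none of the 34 windows, against 4.54%. The median GC content was 63% in the windows of the named genes, against 60.7% in those of the tested genes. The windows of Hspa1a and Hspa1b were identical at 296 of 300 bases. Both genes are counted among the 34 and among the 9 with a heat shock element of 2 units. A match is a description of these letters only.

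These genes were higher in LN stroma than on the cultured arrays. Of the 40 genes, 38 (95%) had their highest value in LN stroma, against 21.5% of the 12693 genes tested. By at least 2-fold above all 5 cultured arrays there were 29 of 40 (72.5%), against 5.23% of all genes. None lay below all 5 cultured arrays, by any amount or by at least 2-fold, against 32.7% and 2.32% of all genes. For the test, the 2 arrays of a line were averaged, which left 1 LN stroma array against 3 cultured sources, and the LN stroma array was assumed to vary as those sources did. By limma with Benjamini-Hochberg adjustment over all genes, at an adjusted p of 0.05, 19 of the 40 rose in LN stroma (47.5%), against 1.91% of all genes, and 0 fell, against 0.142%. At an unadjusted p of 0.05, limma counted 30 of the 40 as higher (75%), against 8.14% of all genes, and 0 as lower. Nr4a3 and Dusp2 passed the filter only because LN stroma was above its median, which favours a difference. Without such genes, 18 of 38 rose, against 0.807% of 12139 genes, and 28 of 38 were at least 2-fold above all 5 cultured arrays, against 3.34%. The median log2 difference of the 40 was 2.68, with a range from 0.16 to 7.29, against a median of -0.09 over all genes. Without any 1 of the 3 cultured sources, 0 of the 40 passed by limma, and 0 of all genes did, while 29 to 31 of the 40 had an unadjusted p under 0.05, against 13.6% to 15.2% of all genes in either direction, and the median difference was 2.72 to 2.84. The calls by limma rest on all 3 sources. The number at least 2-fold above the cultured arrays was 28 to 30 under the alternatives run for it. Leaving out a source can only keep or raise that number, so those runs could not test it. Every alternative used the same single LN stroma array. Among the 12693 tested genes ranked by this difference, 1 of the 40 was in the first 10, 4 in the first 50 and 7 in the first 100. The 7 include Nr4a3, which passed the filter through LN stroma alone. The ranks, the other counts and the median were not recounted without genes that passed in this way.

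**Figure D1:**
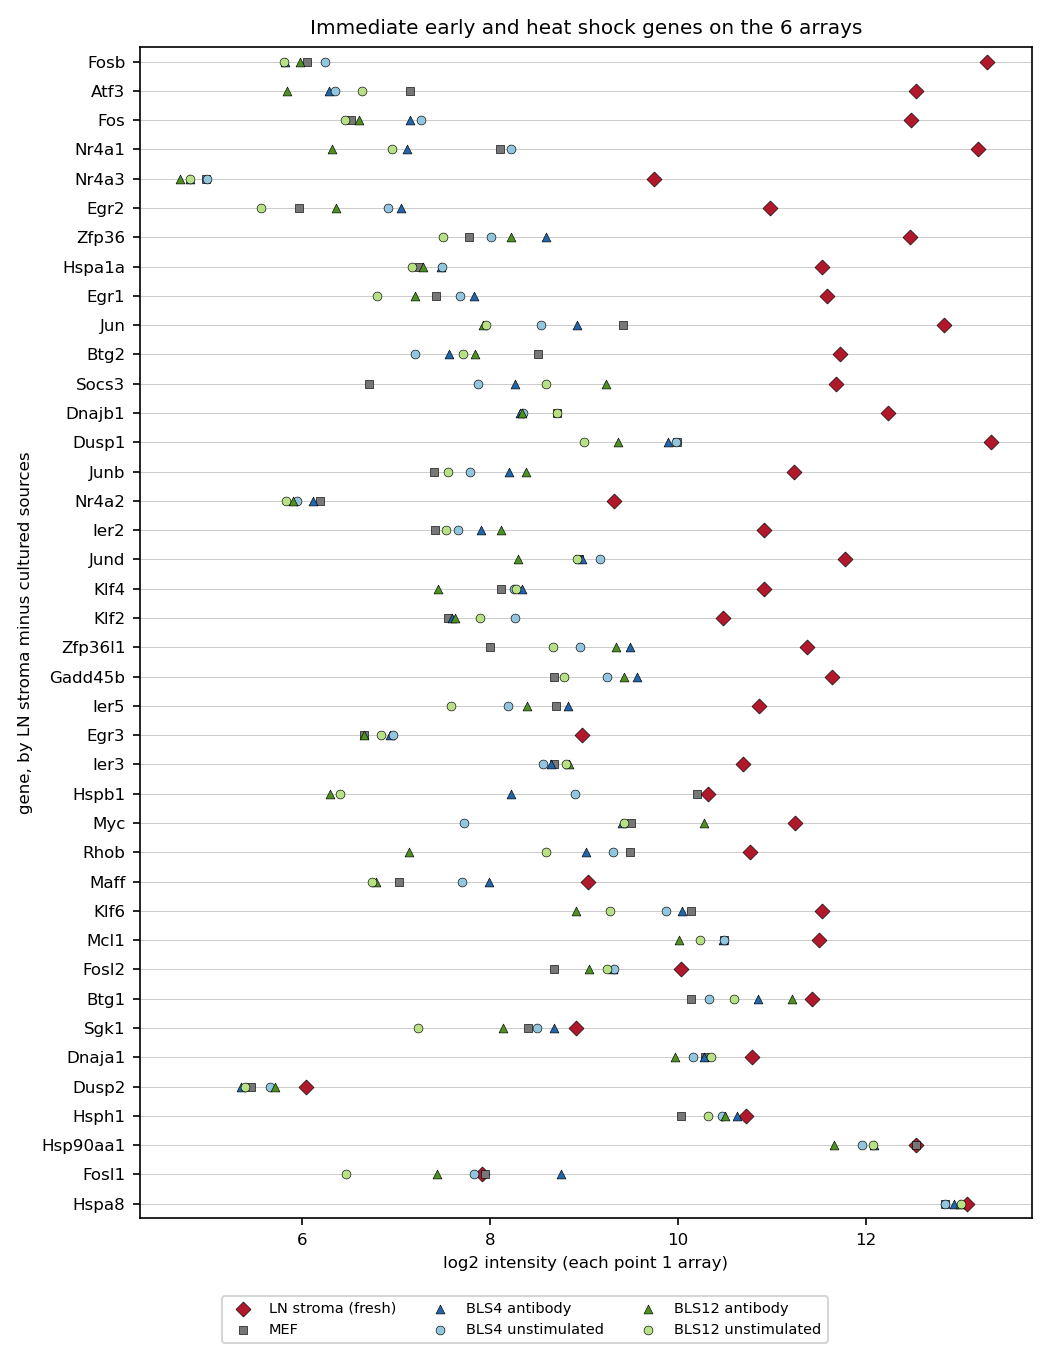
Each point is the log2 intensity of a gene (rows, 40 genes in the order of their difference in LN stroma) on 1 of the 6 arrays. The LN stroma points lie to the right of all 5 cultured arrays for 38 genes, by 7.04 for Fosb and 0.06 for Hspa8, and within the cultured range for Fosl1 and Hsp90aa1.

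Among the Fos proteins, which pair with Jun proteins to form the factor AP-1, the 2 fast-induced members stood apart. Fosb had 13.29 in LN stroma, against 6.06 in MEF, 5.83 and 6.25 in antibody-treated and unstimulated BLS4, and 5.98 and 5.81 in antibody-treated and unstimulated BLS12. The LN stroma value was far above every cultured array, and the cultured arrays lay within 0.44 of each other. Fosb rose by 7.29 on the log2 scale, or 156-fold (SE 0.22, adjusted p = 0.00825), the 9th largest difference of all tested genes. For Fos the value was 12.48 in LN stroma, 6.53 in MEF, 7.15 in BLS4 with antibody and 7.27 without, and 6.61 in BLS12 with antibody and 6.46 without. Fos, the founding member and partner of Jun, rose by 5.72 on the log2 scale, or 52.7-fold (SE 0.38, adjusted p = 0.0185), with no overlap with culture. Fosl1 had 7.91 in LN stroma, against 7.95 in MEF, 8.75 and 7.83 in antibody-treated and unstimulated BLS4, and 7.44 and 6.47 in antibody-treated and unstimulated BLS12. Fosl1, which codes for FRA-1 and is a slower member of the family, lay inside the cultured range, with a difference of 0.18 (SE 0.60, adjusted p = 0.92), or -0.21 without BLS12. Fosl2, which codes for FRA-2, had 10.03 in LN stroma, against 8.68 to 9.33 in culture, and a difference of 0.98 (SE 0.34, adjusted p = 0.286).

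Of the 3 Jun genes, all were at least 2-fold above every cultured array and 2 passed the test. For Jun the value was 12.83 in LN stroma, 9.41 in MEF, 8.93 in BLS4 with antibody and 8.54 without, and 7.92 in BLS12 with antibody and 7.96 without. Jun was highest in LN stroma and next in MEF, and its difference of 4.13 (SE 0.63, adjusted p = 0.0846) did not pass. Junb had 11.23 in LN stroma, against 7.41 in MEF, 8.21 and 7.79 in antibody-treated and unstimulated BLS4, and 8.39 and 7.56 in antibody-treated and unstimulated BLS12. Junb rose by 3.44 on the log2 scale, or 10.8-fold (SE 0.34, adjusted p = 0.0335). For Jund the value was 11.77 in LN stroma, 8.95 in MEF, 8.97 in BLS4 with antibody and 9.18 without, and 8.30 in BLS12 with antibody and 8.93 without. Jund, the member of the family that most resting cells express, rose by 2.90 on the log2 scale, or 7.44-fold (SE 0.28, adjusted p = 0.0328), and its lowest value was on the antibody-treated BLS12 array.

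The other leucine zipper factors on the list were Atf3 and Maff, of which Atf3 passed. Atf3 had 12.53 in LN stroma, against 7.16 in MEF, 6.29 and 6.36 in antibody-treated and unstimulated BLS4, and 5.85 and 6.64 in antibody-treated and unstimulated BLS12. Atf3, a factor of the ATF/CREB family that many stresses induce, rose by 5.95 on the log2 scale, or 61.9-fold (SE 0.46, adjusted p = 0.0233) and had no overlap with culture. For Maff the value was 9.05 in LN stroma, 7.03 in MEF, 7.99 in BLS4 with antibody and 7.70 without, and 6.79 in BLS12 with antibody and 6.75 without. Maff, a small MAF protein without an activation domain, was highest in LN stroma by 1.06 over antibody-treated BLS4, and its difference of 1.83 (SE 0.50, adjusted p = 0.22) did not pass.

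All 3 EGR genes, zinc finger factors that bind GC-rich sites, rose. Egr1 had 11.58 in LN stroma, against 7.42 in MEF, 7.83 and 7.69 in antibody-treated and unstimulated BLS4, and 7.20 and 6.80 in antibody-treated and unstimulated BLS12. Egr1, the most widely induced of them, rose by 4.19 on the log2 scale, or 18.2-fold (SE 0.37, adjusted p = 0.0273). For Egr2 the value was 10.98 in LN stroma, 5.97 in MEF, 7.05 in BLS4 with antibody and 6.92 without, and 6.37 in BLS12 with antibody and 5.57 without. Egr2, which carries the CArG box shown above, rose by 4.68 on the log2 scale, or 25.6-fold (SE 0.52, adjusted p = 0.0417), and 1 of its cultured values lay below the median of its array. Egr3 had 8.98 in LN stroma, against 6.66 in MEF, 6.93 and 6.97 in antibody-treated and unstimulated BLS4, and 6.67 and 6.85 in antibody-treated and unstimulated BLS12. Egr3 rose by 2.19 on the log2 scale, or 4.57-fold (SE 0.24, adjusted p = 0.0399), with the narrowest cultured range of the 3.

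The NR4A genes code for orphan nuclear receptors that act without a known ligand, and all 3 were at least 2-fold above every cultured array. For Nr4a1 the value was 13.19 in LN stroma, 8.10 in MEF, 7.12 in BLS4 with antibody and 8.23 without, and 6.32 in BLS12 with antibody and 6.96 without. Nr4a1 had no overlap with culture and rose by 5.72 on the log2 scale, or 52.7-fold (SE 0.64, adjusted p = 0.0429). Nr4a3 had 9.75 in LN stroma, against 4.98 in MEF, 4.82 and 5.0 in antibody-treated and unstimulated BLS4, and 4.71 and 4.82 in antibody-treated and unstimulated BLS12. Nr4a3 passed the filter through LN stroma alone, since all 5 cultured arrays held it below their median. Its log2 difference of 4.87 is therefore given without a p-value. Nr4a3 is among the genes counted above as rising, where the counts without such genes are also given. For Nr4a2 the value was 9.32 in LN stroma, 6.19 in MEF, 6.12 in BLS4 with antibody and 5.95 without, and 5.91 in BLS12 with antibody and 5.84 without. Nr4a2 rose by 3.29 on the log2 scale, or 9.75-fold (SE 0.24, adjusted p = 0.0216).

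Of the 3 IER genes, named only for their immediate early response, 2 passed. Ier2 had 10.92 in LN stroma, against 7.42 in MEF, 7.91 and 7.67 in antibody-treated and unstimulated BLS4, and 8.12 and 7.53 in antibody-treated and unstimulated BLS12. Ier2 rose by 3.24 on the log2 scale, or 9.45-fold (SE 0.28, adjusted p = 0.0262). For Ier3 the value was 10.69 in LN stroma, 8.69 in MEF, 8.65 in BLS4 with antibody and 8.57 without, and 8.84 in BLS12 with antibody and 8.81 without. Ier3, a regulator of cell survival, rose by 1.99 on the log2 scale, or 3.96-fold (SE 0.23, adjusted p = 0.0437), and its cultured arrays lay within 0.27 of each other. Ier5 had 10.86 in LN stroma, against 8.71 in MEF, 8.83 and 8.19 in antibody-treated and unstimulated BLS4, and 8.40 and 7.59 in antibody-treated and unstimulated BLS12. Ier5 was at least 2-fold above every cultured array, with a difference of 2.45 (SE 0.36, adjusted p = 0.079) that did not pass.

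Of the 2 phosphatase genes that end the response, 1 passed. Dusp1 codes for a phosphatase that switches off p38 and JNK kinases. For Dusp1 the value was 13.33 in LN stroma, 10.0 in MEF, 9.89 in BLS4 with antibody and 9.98 without, and 9.37 in BLS12 with antibody and 9.0 without. It had no overlap with culture and rose by 3.63 on the log2 scale, or 12.4-fold (SE 0.42, adjusted p = 0.0463). Dusp2 had 6.04 in LN stroma, against 5.46 in MEF, 5.36 and 5.66 in antibody-treated and unstimulated BLS4, and 5.71 and 5.40 in antibody-treated and unstimulated BLS12. Dusp2, a nuclear phosphatase for ERK and p38, was below the array median on all 5 cultured arrays. It too passed the filter through LN stroma alone, and it differed by 0.54.

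Zfp36 codes for tristetraprolin, which binds AU-rich elements and brings mRNAs to decay. Zfp36 had 12.47 in LN stroma, against 7.77 in MEF, 8.60 and 8.01 in antibody-treated and unstimulated BLS4, and 8.23 and 7.50 in antibody-treated and unstimulated BLS12. It had no overlap with culture and rose by 4.49 on the log2 scale, or 22.5-fold (SE 0.31, adjusted p = 0.0194). For Zfp36l1 the value was 11.37 in LN stroma, 8.0 in MEF, 9.49 in BLS4 with antibody and 8.96 without, and 9.34 in BLS12 with antibody and 8.67 without. Its relative Zfp36l1 was lowest in MEF, and its difference of 2.63 (SE 0.56, adjusted p = 0.156) did not pass. Btg1 and Btg2 code for antiproliferative proteins that recruit the CCR4-NOT deadenylase. Btg2 had 11.73 in LN stroma, against 8.51 in MEF, 7.57 and 7.21 in antibody-treated and unstimulated BLS4, and 7.85 and 7.71 in antibody-treated and unstimulated BLS12. Btg2 was above every cultured array, and its difference of 3.83 (SE 0.50, adjusted p = 0.0615) missed the threshold. For Btg1 the value was 11.42 in LN stroma, 10.14 in MEF, 10.85 in BLS4 with antibody and 10.33 without, and 11.21 in BLS12 with antibody and 10.60 without. Btg1 in LN stroma lay 0.21 above the antibody-treated BLS12 array, with a difference of 0.88 (SE 0.37, adjusted p = 0.356).

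Of the Krüppel-like factors, Klf2 and Klf4 passed. Klf2 had 10.48 in LN stroma, against 7.56 in MEF, 7.59 and 8.26 in antibody-treated and unstimulated BLS4, and 7.63 and 7.89 in antibody-treated and unstimulated BLS12. Klf2, best known in endothelium and quiescent T cells, rose by 2.73 on the log2 scale, or 6.64-fold (SE 0.26, adjusted p = 0.0302). For Klf4 the value was 10.92 in LN stroma, 8.12 in MEF, 8.35 in BLS4 with antibody and 8.26 without, and 7.45 in BLS12 with antibody and 8.27 without. Klf4, also one of the reprogramming factors, rose by 2.82 on the log2 scale, or 7.07-fold (SE 0.27, adjusted p = 0.0325), and neither gene overlapped with culture. Klf6 had 11.53 in LN stroma, against 10.14 in MEF, 10.04 and 9.88 in antibody-treated and unstimulated BLS4, and 8.91 and 9.27 in antibody-treated and unstimulated BLS12. Klf6 was above every cultured array, and its difference of 1.80 (SE 0.50, adjusted p = 0.225) did not pass.

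The chaperones divided by gene. Hspa1a codes for the stress-inducible HSP70, and Dnajb1 for the HSP40 that delivers clients to it. Hspa1a had 11.54 in LN stroma, against 7.25 in MEF, 7.48 and 7.49 in antibody-treated and unstimulated BLS4, and 7.28 and 7.17 in antibody-treated and unstimulated BLS12. The 5 cultured arrays lay within 0.32 of each other, and Hspa1a rose by 4.22 on the log2 scale, or 18.6-fold (SE 0.24, adjusted p = 0.0149) in LN stroma. For Dnajb1 the value was 12.24 in LN stroma, 8.72 in MEF, 8.32 in BLS4 with antibody and 8.35 without, and 8.34 in BLS12 with antibody and 8.72 without. Dnajb1 rose by 3.71 on the log2 scale, or 13.1-fold (SE 0.26, adjusted p = 0.0195), with no overlap. Beside them, Hspa8 codes for HSC70, the HSP70 that cells make without stress. Hspa8 had 13.07 in LN stroma, against 12.84 in MEF, 12.93 and 12.84 in antibody-treated and unstimulated BLS4, and 13.0 and 13.01 in antibody-treated and unstimulated BLS12. Its values were nearly level, at a difference of 0.16 (SE 0.22, adjusted p = 0.786). A probe set of Hspa8 that was not the brightest gave a larger difference, 0.94, with 13.11 in LN stroma, 12.95 in MEF and 11.70 to 11.96 in the lines.

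For Hspb1 the value was 10.31 in LN stroma, 10.20 in MEF, 8.23 in BLS4 with antibody and 8.91 without, and 6.30 in BLS12 with antibody and 6.41 without. Hspb1, which codes for the small heat shock protein HSP27, was as high in MEF as in LN stroma and low in BLS12, and its difference of 1.94 (SE 1.58, adjusted p = 0.617) did not pass. Hsp90aa1 had 12.53 in LN stroma, against 12.53 in MEF, 12.09 and 11.95 in antibody-treated and unstimulated BLS4, and 11.66 and 12.07 in antibody-treated and unstimulated BLS12. Hsp90aa1, which codes for the inducible HSP90, was level between LN stroma and MEF, with a difference of 0.39 (SE 0.35, adjusted p = 0.658). For Hsph1 the value was 10.73 in LN stroma, 10.03 in MEF, 10.63 in BLS4 with antibody and 10.47 without, and 10.50 in BLS12 with antibody and 10.32 without. Hsph1, which codes for HSP110, a nucleotide exchange factor of HSP70, lay 0.10 above the highest cultured array and differed by 0.40 (SE 0.30, adjusted p = 0.587). Dnaja1, another HSP40, had 10.79 in LN stroma, against 9.96 to 10.36 in culture, and differed by 0.56 (SE 0.21, adjusted p = 0.317). Of the 7 HSP70 and other chaperone genes, 2 therefore passed, Hspa1a and Dnajb1.

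**Figure D2:**
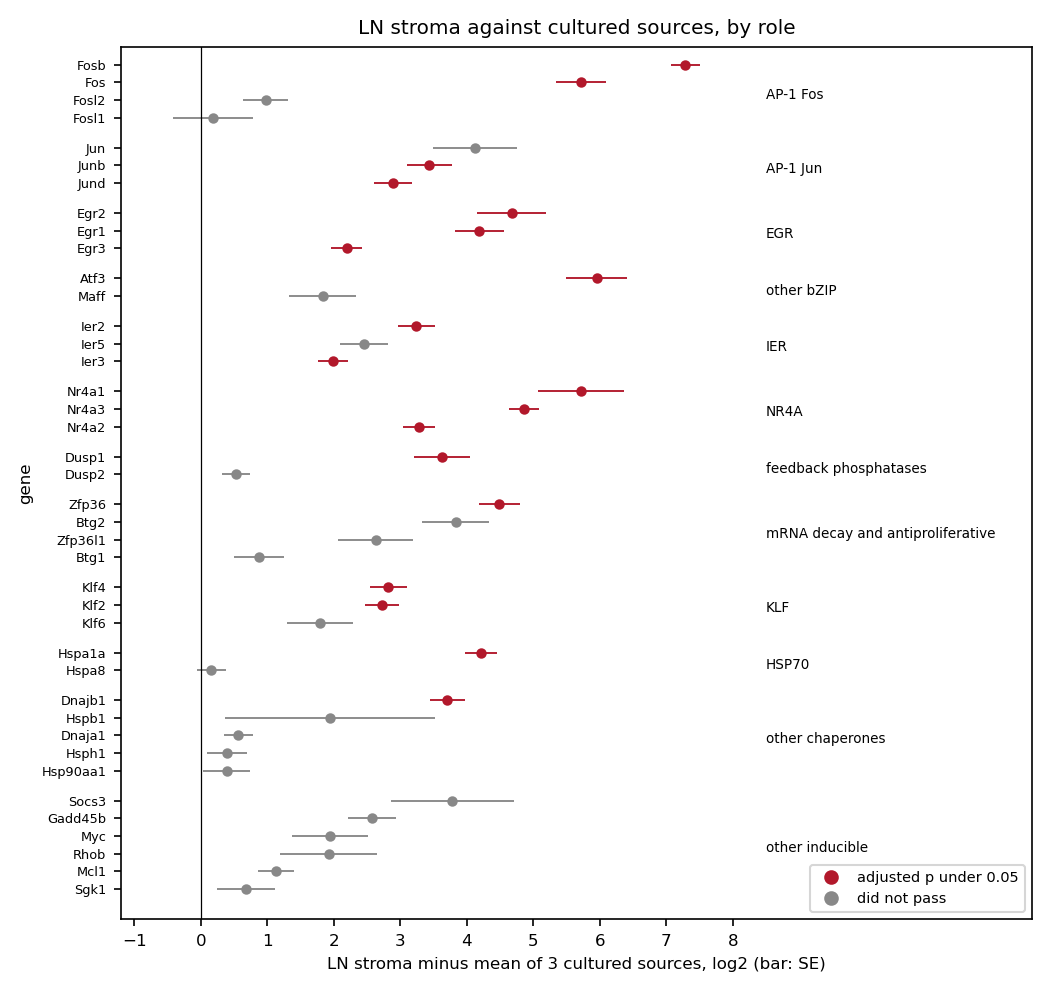
Points are the log2 difference of LN stroma (1 array) from the mean of 3 cultured sources for the 40 genes, grouped by role, with bars of 1 SE and red for an adjusted p under 0.05 by limma. All 40 points lie above 0, the 19 red ones, Nr4a3 included, between 1.99 and 7.29, and the genes near 0 include Hspa8, Fosl1, Hsph1 and Hsp90aa1.

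None of the 6 other inducible genes passed, although 4 were at least 2-fold above every cultured array. Socs3 had 11.68 in LN stroma, against 6.71 in MEF, 8.27 and 7.87 in antibody-treated and unstimulated BLS4, and 9.24 and 8.60 in antibody-treated and unstimulated BLS12. Socs3, an inhibitor of JAK and STAT signalling, was lowest in MEF and highest in LN stroma, with a difference of 3.78 (SE 0.92, adjusted p = 0.189). For Myc the value was 11.25 in LN stroma, 9.50 in MEF, 9.40 in BLS4 with antibody and 7.73 without, and 10.27 in BLS12 with antibody and 9.43 without. Myc, a driver of growth and proliferation, lay 0.97 above antibody-treated BLS12, just short of 2-fold, with a difference of 1.94 (SE 0.58, adjusted p = 0.242). Rhob had 10.76 in LN stroma, against 9.49 in MEF, 9.02 and 9.31 in antibody-treated and unstimulated BLS4, and 7.14 and 8.60 in antibody-treated and unstimulated BLS12. Rhob, an early-response small GTPase, differed by 1.92 (SE 0.72, adjusted p = 0.316), with its lowest value on the antibody-treated BLS12 array. For Sgk1 the value was 8.92 in LN stroma, 8.41 in MEF, 8.68 in BLS4 with antibody and 8.50 without, and 8.14 in BLS12 with antibody and 7.24 without. Sgk1, a kinase induced by serum and glucocorticoids, lay 0.24 above antibody-treated BLS4 and differed by 0.69 (SE 0.44, adjusted p = 0.519). Gadd45b, a stress sensor upstream of p38 and JNK, had 11.64 in LN stroma, against 8.69 to 9.56 in culture, and differed by 2.58 (SE 0.36, adjusted p = 0.0693). Mcl1, a short-lived BCL2 family protein, had 11.50 in LN stroma, against 10.01 to 10.49 in culture, and differed by 1.13 (SE 0.27, adjusted p = 0.182). At 1.01 above the highest cultured array, Mcl1 was the last gene inside the 2-fold margin and Myc the first outside it.

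The single comparisons with each unstimulated source gave similar numbers of genes. At least 4-fold higher in LN stroma were 26 of the 40 against MEF (4.61% of all genes), 26 against unstimulated BLS4 (4.55%) and 28 against unstimulated BLS12 (5.04%). These 3 comparisons share the LN stroma array, so they are not separate evidence, and 1 array on each side gives no test.

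Other genes of the same pathways were counted from lists compiled for this purpose. The lists were chosen with earlier results of these data known, so they are not separate evidence. Of 31 other immediate early genes with a probe set, 18 were at least 2-fold above every cultured array, against 5.23% of all genes. The median difference of the 31 was 1.97. The 18 include Rgs2, which passed the filter through LN stroma alone, with 7.74 there and 3.76 to 6.05 in culture. Without genes that passed in this way, the share of all genes was 3.34%. Nfkbiz, a nuclear IκB protein, had 11.65 in LN stroma, against 6.90 to 7.98 in culture, and rose by 4.28 (SE 0.22, adjusted p = 0.0128). Sik1, a kinase that restrains CREB coactivators, rose by 3.36 (SE 0.40, adjusted p = 0.0496). Ppp1r15a, the stress-induced subunit that directs a phosphatase to the translation factor eIF2α, had 10.72 in LN stroma, against 7.15 to 7.52 in culture, and rose by 3.34 (SE 0.22, adjusted p = 0.0185). Gem, a small GTPase, had the largest difference of the list, 5.31 (SE 1.02, adjusted p = 0.132), and did not pass, with cultured values from 4.95 to 8.39.

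The upstream regulators were counted in the same way. Of 21 kinases and factors that act on these promoters, 0 were at least 2-fold above every cultured array, against 5.23% of all genes. Their median difference was 0.08. The largest differences were in Map2k6, a kinase upstream of p38, at 1.31 (adjusted p = 0.373), and in Elk3, an SRF partner, at -1.21 (adjusted p = 0.185). Srf and Creb1, named for their role after their values were seen, differed by -0.27 (adjusted p = 0.711) and 0.48 (adjusted p = 0.362). Of 10 genes of MAPK feedback, the Dusp, Sprouty and Spred genes, 0 were at least 2-fold above every cultured array, with a median difference of 0.59. In lists of this size, 0 lies near the share of all genes, so it does not set these genes apart. Of 30 other chaperones and heat shock factors, 2 were at least 2-fold above every cultured array, near the share of all genes. Their median difference was -0.56, and the endoplasmic reticulum HSP40 Dnajb9 had the largest, 2.21. Bag3, a co-chaperone induced by HSF1, differed by 1.60 (adjusted p = 0.074) and Cct2, a subunit of the cytosolic chaperonin, by -1.33 (adjusted p = 0.221).

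No effect of the LTβR antibody on these genes passed the test. In the 4 cell line arrays, with the line as a block, limma called 0 of the 38 genes tested, against 0.275% of the 11988 genes tested, and the median difference of the 38 was 0.09, against -0.02 over all genes. At an unadjusted p under 0.05, limma counted 15 of the 38 (39.5%), against 11.6% of all genes, 11 of them higher and 4 lower with antibody. None of the 38 was at least 2-fold higher in both lines, against 0.434% of all genes, or at least 2-fold lower in both, against 0.234%. By any amount, 18 of the 38 were higher with antibody in both lines (47.4%), against 28.4%, and 10 were lower in both (26.3%), against 31.5%. With each array centred on its median, 15 of the 38 were higher in both lines, against 18.3% of all genes, and 11 were lower in both, against 41.5%. At an unadjusted p under 0.05 by limma, the centred arrays gave 8 higher and 5 lower. No share of all genes was counted by direction at this unadjusted p, so neither split sets these genes apart. The test had 1 residual degree of freedom, and a p that misses the threshold does not show that a gene did not respond.

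The largest antibody differences were in Myc and Fosl1, whose values on every array stand above. Myc had 9.40 with antibody and 7.73 without in BLS4, a difference of 1.67, and 10.27 with antibody and 9.43 without in BLS12, a difference of 0.84. Its mean difference was 1.26 (SE 0.22, adjusted p = 0.117). Fosl1 was higher by 0.92 in BLS4 and 0.96 in BLS12, the most even pair, with a mean of 0.94 (SE 0.14, adjusted p = 0.0841). It passed under 2 of the alternatives, with adjusted p = 0.0391 under a stricter filter on dim genes and 0.0407 with a prior that was robust and followed the mean level. Ier5 was higher by 0.64 in BLS4 and 0.81 in BLS12 (mean 0.73, SE 0.14, adjusted p = 0.137). Zfp36 was higher by 0.58 and 0.73 in the same order of lines (mean 0.66, SE 0.14, adjusted p = 0.171), Junb by 0.42 and 0.83 (mean 0.62, SE 0.16, adjusted p = 0.237) and Zfp36l1 by 0.53 and 0.66 (mean 0.60, SE 0.14, adjusted p = 0.197). All these genes were higher with antibody in both lines, but none passed.

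Nr4a1 and Rhob were lower with antibody in both lines. Nr4a1 differed by -1.10 in BLS4 and -0.63 in BLS12 (mean -0.87, SE 0.17, adjusted p = 0.137). Rhob differed by -0.29 in BLS4 and -1.46 in BLS12 (mean -0.87, SE 0.28, adjusted p = 0.339). Fos and Fosb, both far higher in LN stroma, had mean antibody differences of 0.02 and -0.13. Hspa1a and Dnajb1 had 0.06 and -0.20. The signs of Fos and Hspa1a turned with each array centred on its median, to -0.06 and -0.02. Of the genes outside the 40, 29 other immediate early genes, 21 regulators, 10 MAPK feedback genes and 30 other chaperones were tested. In each list limma called 0, against 0.275% of all genes, a share too low for such short lists to show a lack of response. Pim1, a survival kinase, differed by 1.09 (adjusted p = 0.0856), Irf1, an interferon regulatory factor, by 1.25 (adjusted p = 0.129), and F3, the gene for tissue factor, by -1.85 (adjusted p = 0.244).

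**Figure D3:**
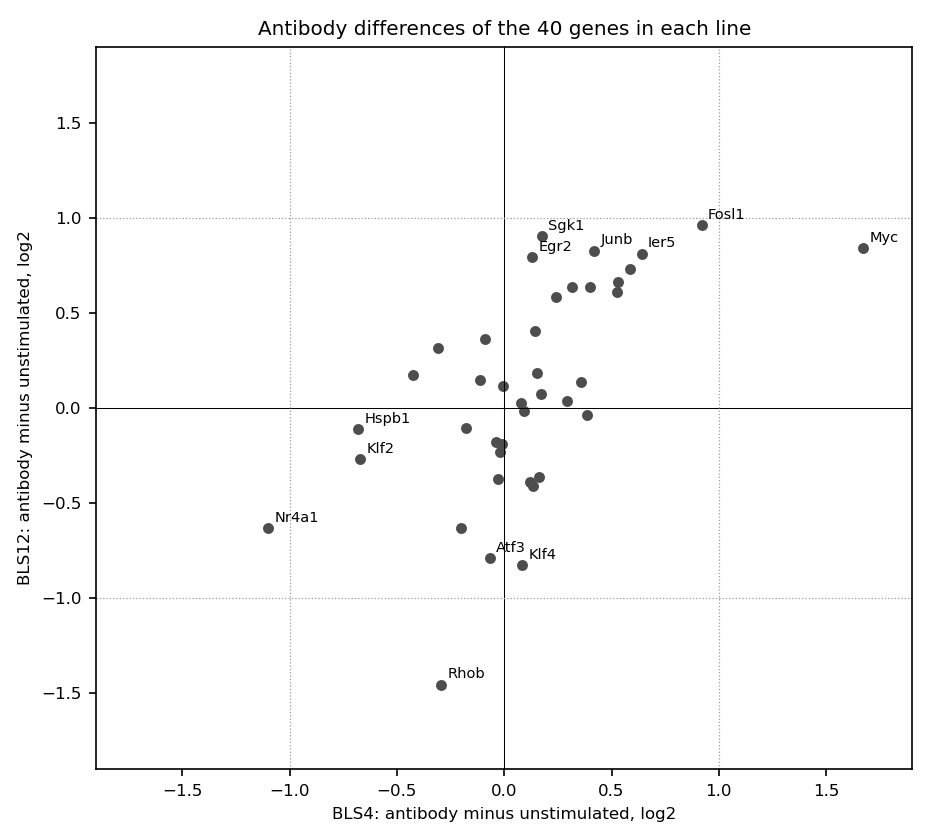
Each point is 1 of the 40 genes, with its log2 difference between the antibody and the unstimulated array in BLS4 on the x axis and in BLS12 on the y axis, and dotted lines at 2-fold. No point lies beyond the dotted lines in the same direction in both lines, and Fosl1 and Myc come nearest, at 0.92 and 1.67 in BLS4 and 0.96 and 0.84 in BLS12.

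More of these genes passed the test between the 2 lines than with the antibody. By limma, in the same fit with the antibody as a term, 15 of the 38 differed (39.5%), against 23.6% of all genes. Of these, 13 were lower in BLS12 than in BLS4 (34.2%, against 11.4% of all genes), and 2 were higher (5.26%, against 12.2%). The median BLS12 minus BLS4 difference of the 38 was -0.24, with 8 genes above 0, against 0.00 over all genes. Both BLS12 arrays lay below both BLS4 arrays for 18 of the 38 (47.4%), against 30.8% of all genes. Without the antibody term, 4 passed as lower and 0 as higher. The 2 arrays of a line share its cells. The p-values between the lines therefore reflect how closely a difference agreed between the 2 conditions, not replicate cultures of a line.

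The largest line difference was in Hspb1, which fell by 2.21 in BLS12 relative to BLS4 (SE 0.18, adjusted p = 0.00176). Its difference was -1.93 with antibody and -2.50 without. For the second largest, Fosl1, BLS12 minus BLS4 was -1.34 (SE 0.14, adjusted p = 0.00348), at -1.32 with antibody and -1.36 without. Hspb1 and Fosl1 were the 2 genes at least 2-fold lower in BLS12 in both conditions. The share of all genes under this rule was not counted, so the number does not set these genes apart. Rhob differed by -1.30 (SE 0.28, adjusted p = 0.0267), at -1.88 on the antibody arrays and -0.72 on the unstimulated arrays. Maff differed by -1.08 (SE 0.15, adjusted p = 0.00756) and Sgk1 by -0.90 (SE 0.21, adjusted p = 0.0314). Klf6 differed by -0.87 (SE 0.18, adjusted p = 0.0225). Ier5 was at the edge of the threshold, with -0.52 (SE 0.14, adjusted p = 0.0499), and its BLS12 and BLS4 arrays overlapped.

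Several genes with large differences in LN stroma were among the 13, all with both BLS12 arrays below both BLS4 arrays. Nr4a1 had -1.04 (SE 0.17, adjusted p = 0.0125) and Egr2 -1.02 (SE 0.20, adjusted p = 0.0192). Jun had -0.79 (SE 0.16, adjusted p = 0.023), Egr1 -0.76 (SE 0.15, adjusted p = 0.0202), Dusp1 -0.75 (SE 0.17, adjusted p = 0.0289) and Fos -0.67 (SE 0.15, adjusted p = 0.0275). Among the upstream regulators, Elk1, an SRF partner, differed by -1.01 (adjusted p = 0.00802), the 1 called of 21. Higher in BLS12 were Myc, by 1.28 (SE 0.22, adjusted p = 0.0147), and Socs3, by 0.85 (SE 0.15, adjusted p = 0.0144). Among MAPK feedback genes, Dusp6, an ERK phosphatase, was higher by 1.13 (adjusted p = 0.00661), 1 of 2 called of 10. Of 30 other chaperones, 7 were higher and 2 lower in BLS12 (30% called), and of 29 other immediate early genes 4 were higher and 3 lower (24.1%), both near the 23.6% of all genes.

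**Figure D4:**
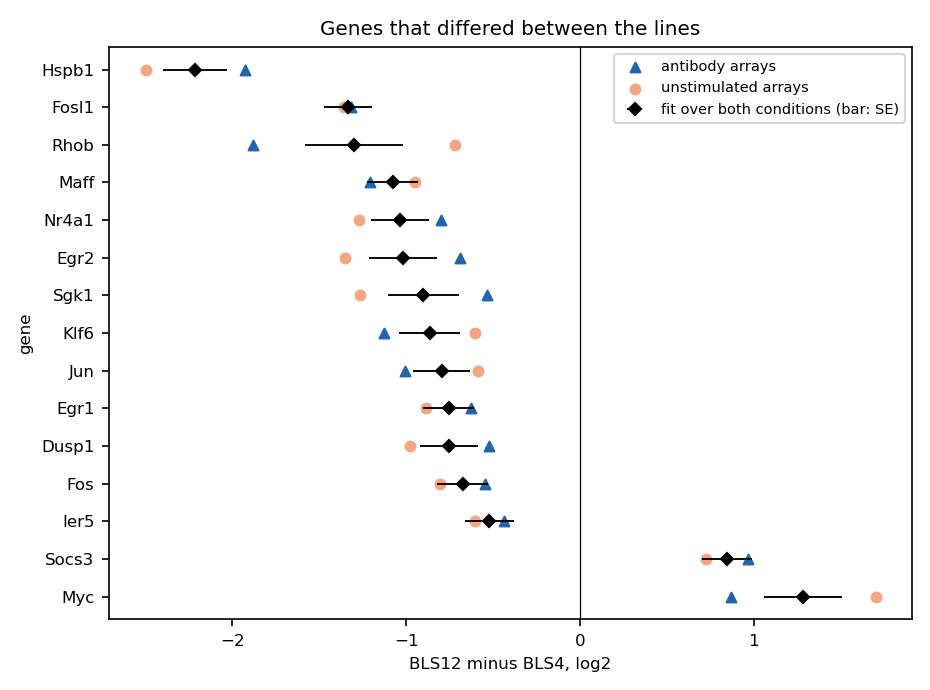
The 15 genes that passed are shown with their log2 BLS12 minus BLS4 difference on the x axis, black diamonds for the fit with bars of 1 SE, triangles for the antibody arrays and circles for the unstimulated arrays. Every triangle and circle lies on the same side of 0 as its diamond, with 13 genes below 0 and Socs3 and Myc above it.

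Across the 5 cultured arrays the genes varied by different amounts. On the probe sets used, the spread from the lowest to the highest cultured array was smallest for Hspa8 (0.17), Ier3 (0.27), Nr4a3 (0.28), Egr3 (0.31) and Hspa1a (0.32). A probe set of Hspa8 that was not the brightest ran from 11.70 to 12.95 in culture. The probe set that Hspa1a shares with Hspa1b ran from 8.77 to 10.29. The spread on the probe sets used was largest for Hspb1 (3.90), Myc (2.54), Socs3 (2.52), Rhob (2.35) and Fosl1 (2.28). The highest cultured array was MEF for 9 of the 40 genes, antibody-treated BLS4 for 11, unstimulated BLS4 for 10, antibody-treated BLS12 for 7 and unstimulated BLS12 for 3. Of the 40, 37 were at or above the array median on all 5 cultured arrays.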

How the data were processed

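The deposited values were a linear intensity per probe set, which the authors obtained from Affymetrix Expression Console 1.1, per the submitters' processing notes. How probes were summarised and scaled, and the build, is not given in the sources used here. Intensities started at 3.55 and were put on the log2 scale with no floor. Of 35557 probe sets, 21789 named 1 gene in GEO's platform annotation and were kept, 21698 of them matched to RefSeq by Entrez ID, and 1621 named several genes. For 701 probe sets the values were identical to those of another, none of them one used for the 40 genes.

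The members and lists were chosen with earlier results of these data known. Genes were kept with at least 2 of the 4 cell line arrays, or LN stroma or at least 2 cultured arrays, at or above the array median. Differences were tested two-sided with limma 3.58.1 in R 4.3.3 (lmFit, eBayes), adjusted by Benjamini-Hochberg over all genes kept, at 0.05, in an additive model of antibody and line for the 4 line arrays, and for 1 LN stroma array against MEF and the mean of each line. The 2 arrays of a line share its cells, which is where the pairing comes from. Fits were run on simulated arrays with known changes, with a common mean for the cultured sources. Those runs could not test whether the single LN stroma array varies as the cultured sources do. Tables and figures used Python 3.11.15, pandas 2.3.3 and matplotlib 3.10.9. Values on every array were given for genes past 0.05 in any fit, the 12 furthest above and 8 furthest below the cultured range, the 8 with the largest antibody difference of 1 sign and the 6 with the largest line difference each way, and at most 4 genes were named from each other list per comparison. Motifs were searched on both strands, the CArG box as CC, 6 of A or T, then GG. Arrays carry no counts, so their number limits the precision, and no slide or scan date was used here. Alternatives changed the scaling, the filter, the choice among probe sets, the prior, the block and the arrays left out.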

Additional observations from a re-analysis of the deposited data

Results flagged for a closer look

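Dusp2 moved in opposite directions with antibody in the 2 lines, by -0.306 in BLS4 and by 0.316 in BLS12 on the log2 scale. The difference between the lines was not tested, there is 1 array on each side, and all 5 cultured arrays held Dusp2 below their median. The probe set that Hspa1a and Hspa1b share entered no comparison above. Its log2 difference of LN stroma from the cultured sources was 3.31, with 12.84 in LN stroma and 8.77 to 10.29 on the cultured arrays, a further probe set for the inducible HSP70 that was higher in LN stroma than on every cultured array.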

How the results depend on the processing

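Leaving out MEF, BLS4 or BLS12 left 0 of the 40 genes called higher in LN stroma, against 19 with all 3 sources, where fewer samples leave 1 residual degree of freedom. A stricter filter on dim genes, which left 37 of the 40 tested, gave 7, and the other alternatives gave 14 to 23. Over all genes the LN stroma fit called 260, and 18 under the stricter filter, 758 with the 5 cultured arrays taken singly and 0 without any 1 source. The antibody fit called 0 of the 38 as higher, and 1, Fosl1, under the stricter filter and with a prior both mean-dependent and robust. With no replicate block, so that the pairing of the arrays by line was dropped, it called 0 of the 38 and 0 of all genes. Over all genes it called 33, against 98 with centred arrays, 6 with quantile normalization, 54 with no filter, 115 with the stricter filter and 104 with the mean-dependent and robust prior. Without either line, 0 to 1 genes were at least 2-fold higher with antibody, the 1 being Myc in BLS4. For BLS12 against BLS4, dropping the antibody term gave 0 higher and 4 lower, against 2 and 13, and 1428 of all genes, against 2835. At least 2-fold lower in BLS12 were 2 genes in both conditions, 5 on the unstimulated arrays alone and 6 on the antibody arrays alone. No share of all genes was counted for this rule. Except where fewer samples or genes entered, the cause was not tested. No gene that passed turned its direction. Among the others, Fosl1 turned in LN stroma (0.18, and -0.21 without BLS12), 4 genes with antibody, all at most 0.06 in size, and Hspa8 between the lines (0.12, and -0.03 with quantile normalization). The all-gene medians, near 0, turned for antibody (0.006 with no filter) and for the lines (-0.029 with quantile normalization and -0.026 with no filter). Without replication of LN stroma, its own spread is not measured.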
